A study of Mus musculus with 6 samples.

Results

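Interferon regulatory factors (IRFs) were examined in splenic B cells before and after stimulation with CpG DNA, a ligand of the endosomal DNA sensor TLR9. The members were picked out by gene symbol: Irf1, Irf2, Irf3, Irf4, Irf5, Irf7, Irf8 and Irf9. All 8 had a row among the 23420 genes measured by RNA-seq, and all 8 were among the 11233 genes that passed the filter on low values. In B cells stimulated for 4 hours, Irf8 rose 3.14-fold and Irf4 rose 1.95-fold, Irf2 fell 2.82-fold, and Irf9 was higher by a small margin. Irf1, Irf3, Irf5 and Irf7 did not pass the test, of which Irf1 and Irf7 were called lower in a fit that paired same-numbered samples.

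The 6 samples were B cells from the spleens of wild-type (WT) BALB/c mice, purified with magnetic beads by removing other cells. The 3 mice were between 7 and 11 weeks old, and no sample carried an engineered allele. The CpG-stimulated group (WT_Stim, n = 3) received the TLR9 agonist CpG ODN 1826 at 10 µg/mL, and the unstimulated group (WT_UnStim, n = 3) was left without agonist. Each sample held 10M cells at 10M/mL, replicates 1 and 2 came from females and replicate 3 from a male in both groups, and p-values cover only the spread between these samples. One time point and one dose were sampled, so the data give a single step and no course over time.

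All 6 listed B cell markers were read at high levels in every sample, and none of the 6 T cell markers with a row reached a mean of 10 reads. The summed level of 4 NK cell markers was 0.119 to 0.161 CPM in unstimulated and 0.758 to 1.36 CPM in stimulated samples. That sum was carried by Klrb1c, at -4.27, -4.79 and -4.90 and then -0.84, 0.23 and 0.23 log2 CPM, while the other 3 NK cell markers were at or under the level of 3 reads in all samples. The summed level of 6 myeloid markers was 17 to 22.5 CPM in unstimulated and 16.5 to 22.6 CPM in stimulated samples. Its genes moved both ways. Emr1 had a log2FC of 0.83, and Cd14 (-1.73), Csf1r (-1.61), Ly6c2 (-0.30), Lyz2 (-0.21) and Itgam (-0.07) had negative ones. Csf1r had a mean under the level of 10 reads. Erythroid genes were highest in replicate 2 of both groups, with a summed level of 396 to 4970 CPM over the stimulated and 419 to 3900 CPM over the unstimulated samples. In bulk samples such as these, fewer cells of a type and less RNA per cell cannot be told apart. The values had also been quantile normalized, which gives every library the same distribution, so a change in total RNA per cell would not be visible.

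IRFs are transcription factors that share a DNA-binding domain of the winged helix-turn-helix type, which reads a GAAA core. The interferon-stimulated response element (ISRE) holds a pair of such cores. IRF3, IRF5 and IRF7 are activated by phosphorylation downstream of nucleic acid sensors, IRF9 binds DNA together with STAT proteins after interferon receptor signaling, and IRF1 and IRF2 compete for the same elements as activator and antagonist. IRF4 and IRF8 are the lymphoid and myeloid members: they bind weakly alone and are recruited to composite elements by ETS factors such as PU.1 and SPIB, or by BATF-JUN dimers, and in B cells they take part in germinal center and plasma cell fate.

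Promoter sequences of the members are given first, since the IRF genes are themselves known targets of the factors that read these elements. All 8 genes matched RefSeq promoters (GRCm38.p6, 11 promoters in all), and the 250 bases before each start were searched on both strands for 4 motifs. These were the ISRE (GAAANNGAAA), the ETS-IRF composite element (GGAANNGAAA), the gamma-activated site read by STAT dimers (GAS, TTCNNNGAA) and the NF-kB motif. The ISRE and the composite letters can overlap each other, since both hold a GAAA. Among all 32851 RefSeq promoters, 2.98% held the ISRE letters in this window, 2.3% the composite element, 7.02% the GAS and 7.25% the NF-kB motif. Of the 11 promoters, 3 held any of them, those of Irf2, Irf8 and Irf1. The share of all promoters that held any of the 4 was not computed. They are printed 5′ to 3′ on the plus strand, which is the strand of all 3 genes, with the matches in capitals.
Irf2 promoter, chr8:46739495-46739744: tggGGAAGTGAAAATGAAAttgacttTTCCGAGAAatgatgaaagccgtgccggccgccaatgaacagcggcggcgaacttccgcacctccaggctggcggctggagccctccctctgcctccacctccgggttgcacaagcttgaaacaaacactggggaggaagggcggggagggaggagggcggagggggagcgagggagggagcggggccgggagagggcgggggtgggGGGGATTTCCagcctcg
Irf8 promoter, chr8:120736108-120736357: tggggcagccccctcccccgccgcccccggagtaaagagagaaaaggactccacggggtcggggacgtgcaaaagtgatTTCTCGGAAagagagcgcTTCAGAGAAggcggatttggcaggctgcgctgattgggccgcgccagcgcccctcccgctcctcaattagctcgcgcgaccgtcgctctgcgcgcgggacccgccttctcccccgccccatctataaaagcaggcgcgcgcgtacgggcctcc
Irf1 promoter, chr11:53769764-53770013: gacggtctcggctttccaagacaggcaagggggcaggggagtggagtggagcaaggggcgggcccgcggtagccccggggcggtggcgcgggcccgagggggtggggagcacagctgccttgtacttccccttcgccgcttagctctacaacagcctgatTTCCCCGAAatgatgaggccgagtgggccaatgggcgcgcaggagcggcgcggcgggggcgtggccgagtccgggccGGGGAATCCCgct
In the Irf2 promoter, the first run of capitals joins a composite element, 247 to 238 bases before the start, to an ISRE that overlaps it at 241 to 232 bases. The next run in Irf2 is a GAS, 224 to 216 bases before the start, and the last is an NF-kB motif at 17 to 8 bases. Starts here are those of RefSeq. The GENCODE start of Irf2 used for its gene coordinates, 46739732, lies within that NF-kB match (46739728 to 46739737). The Irf8 promoter held a pair of GAS matches, 171 to 163 and 153 to 145 bases before the start. The Irf1 promoter held a GAS at 90 to 82 bases and an NF-kB motif at 13 to 4 bases. No match in the promoters of the other 5 genes means only that these letters were not in this window.

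**Figure D1:**
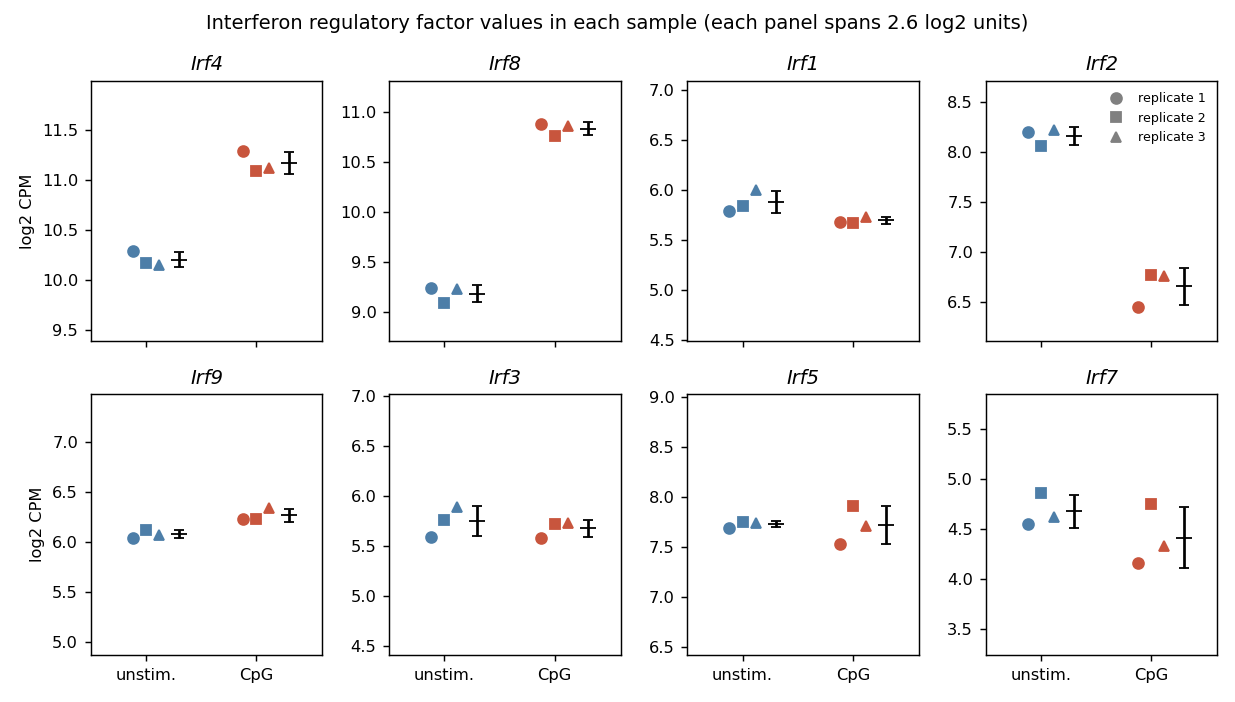
Deposited values of the 8 IRF genes in each sample (vertical axis, log2 CPM, with its own start but the same span for each gene), for 3 unstimulated and 3 CpG-stimulated B cell samples. Points are samples, with a shape for each replicate number, and the black marks beside them are the group mean ± SD: the groups stand wholly apart for Irf1, Irf2, Irf4, Irf8 and Irf9, and overlap for Irf3, Irf5 and Irf7.

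Irf8 (chr8:120736358-120756694, plus strand) was the member with the highest log2 fold change (log2FC). Its values, in log2 CPM (read counts scaled to a common library size), were 9.24, 9.09 and 9.23 in unstimulated replicates 1, 2 and 3 and 10.88, 10.76 and 10.86 in the CpG-stimulated ones. Every stimulated sample was above every unstimulated sample, and the gap between the groups was far wider than the spread within either. The log2FC was 1.65 (SE 0.07, 95% CI 1.49 to 1.80, FDR 4.05e-08 by limma, with Benjamini-Hochberg adjustment over the 11233 genes tested). The same-numbered pairs gave differences of 1.64, 1.67 and 1.63. A total of 636 genes had a larger log2FC. In the GENCODE annotation the whole of Irf8 lies within another gene model of the same strand, Gm20388. That model had no row under this symbol among the genes measured, and the annotation used for counting was not stated.

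Irf8 is also a gene of dendritic cells (DCs), so the listed DC markers were read beside it. The summed level of 5 conventional DC markers was 30.5 to 37.9 CPM in unstimulated and 89.9 to 105 CPM in stimulated samples. That sum was carried by Zbtb46 (log2FC 1.62) and Flt3 (log2FC 1.33), while Xcr1, Clec9a and Itgax had means under the level of 10 reads. The summed level of 5 plasmacytoid DC markers was 16.4 to 17.5 CPM and then 26.5 to 31.4 CPM, carried by Bst2 (log2FC 0.92), itself an interferon-stimulated gene. Siglech, the defining surface marker of plasmacytoid DCs, had a mean under the level of 10 reads, and Ccr9 was lower after CpG (log2FC -0.94). The part of DCs in the Irf8 result was not tested.

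Irf4 (chr13:30749226-30766976, plus strand), the factor that drives plasma cell fate at high dose, rose by a smaller amount. It was at 10.29, 10.17 and 10.15 log2 CPM in the unstimulated samples and 11.29, 11.09 and 11.12 log2 CPM in the stimulated samples. The groups did not overlap, and the 3 pairs moved by 1.0, 0.92 and 0.98. The log2FC was 0.97 (SE 0.08, 95% CI 0.79 to 1.14, FDR 1.79e-06), just short of the limit of 1 that the study used for its signature of TLR9-induced genes. It crossed that limit, at 1.0 and 1.01, when stimulated replicate 2 or unstimulated replicate 1 was left out. Plasma cells carry much Irf4: the summed level of 4 plasma cell markers was 828 to 1180 CPM in unstimulated and 468 to 602 CPM in stimulated samples. Igj was the most abundant of them (log2FC -0.87), Prdm1 did not pass the test (log2FC -0.12), and the part of plasma cells in the Irf4 result was not tested.

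Because IRF4 and IRF8 share DNA partners and sites, their ratio was taken within each sample. Per length of exon, the log2 ratio of Irf4 to Irf8 was 1.58, 1.61 and 1.44 in unstimulated and 0.94, 0.85 and 0.79 in stimulated samples. All 3 stimulated values were below all 3 unstimulated ones. The difference was -0.68 on the log2 scale, a ratio 1.61-fold lower after CpG (exact permutation test, two-sided, p = 0.1, which is the smallest p that 3 against 3 samples allow). Over the 3 ratios tested the adjusted p was 0.15 by exact permutation. These tests did not pair the samples. With the replicate number as a block, the permutation test gave p = 0.25 for each of the 3 ratios, the smallest p that 3 pairs allow. Both genes rose, and Irf8 rose more.

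Irf2 (chr8:46739732-46847458, plus strand), the antagonist of IRF1 at shared elements, was the member that fell most. It was at 8.20, 8.06 and 8.22 log2 CPM in unstimulated samples and at 6.45, 6.77 and 6.76 log2 CPM in stimulated samples. The stimulated values lay wholly below the unstimulated ones. The log2FC was -1.50 (SE 0.09, 95% CI -1.70 to -1.29, FDR 2.67e-07), and the pairs gave -1.74, -1.29 and -1.46. There were 913 genes with a lower log2FC. Irf2 is the member whose promoter, printed above, held all 4 motifs, and a link between these and its fall was not tested.

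Irf1 (chr11:53770014-53778374, plus strand), an activator and a well-known early response gene to interferon gamma, stood close to the threshold. It was at 5.79, 5.84 and 6.0 log2 CPM in unstimulated and 5.68, 5.67 and 5.73 log2 CPM in stimulated samples. Its groups did not overlap, with stimulated samples lower, but the margin was small. The log2FC was -0.18 (SE 0.07, 95% CI -0.35 to -0.01, FDR 0.051). With the replicate number as a block the FDR was 0.0198, so the call for Irf1 depends on the pairing. It also depends on other settings, given below. The interval of the log2FC lay below 0, so no rise of Irf1 was measured at this time point.

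The ratio of Irf1 to Irf2 was higher after CpG. Its log2 value per length of exon was -1.51, -1.33 and -1.32 in unstimulated and 0.13, -0.20 and -0.13 in stimulated samples. The groups did not overlap, and the ratio was 2.49-fold higher after CpG (log2 difference 1.32; exact permutation test, two-sided, p = 0.1, adjusted 0.15). The level of such a ratio depends on the exon lengths used, while its difference between groups does not.

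Irf9 (chr14:55603571-55610030, plus strand), the DNA-binding subunit of the ISGF3 complex, was at 6.04, 6.12 and 6.07 log2 CPM in unstimulated and at 6.23, 6.23 and 6.34 log2 CPM in stimulated samples. The groups did not overlap. The log2FC was 0.19 (SE 0.06, 95% CI 0.05 to 0.33, FDR 0.0205), the smallest change of the 4 members called. The call was lost when stimulated replicate 3 (FDR 0.0989), unstimulated replicate 1 (FDR 0.0639) or unstimulated replicate 3 (FDR 0.0551) was left out. Stat2, which encodes a STAT partner of IRF9, fell from 5.43 ± 0.24 to 4.42 ± 0.16 log2 CPM (SD, n = 3; log2FC -1.01, FDR 4.36e-05). The Irf9 gene overlaps Rnf31 on the same strand over 123 bases, and Rnf31 did not pass the test (log2FC 0.06, FDR 0.45).

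The 3 members that act directly downstream of nucleic acid sensors had overlapping groups. Irf7 (chr7:141262706-141266481, minus strand), which drives interferon alpha genes, was at 4.55, 4.86 and 4.62 log2 CPM in unstimulated and at 4.16, 4.75 and 4.33 log2 CPM in stimulated samples. Replicate 2 was the highest in both groups. The log2FC was -0.26 (SE 0.15, 95% CI -0.60 to 0.07, FDR 0.136). Within same-numbered pairs the value was lower after CpG in 3 of 3, by -0.39, -0.10 and -0.29, and with the replicate number as a block the FDR was 0.0138. Without stimulated replicate 2 the log2FC was -0.43 (FDR 0.00555), and without both libraries numbered 2, where erythroid genes were highest, it was -0.34 (FDR 0.0197). In the other direction, it was -0.13 (FDR 0.42) without stimulated replicate 1 and -0.17 (FDR 0.373) without unstimulated replicate 2. Irf7 overlaps Phrf1 on the opposite strand over 45 bases, and Phrf1 rose (log2FC 0.22, FDR 0.00915).

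Irf3 (chr7:44997648-45002848, plus strand), the inducer of interferon beta, was at 5.59, 5.76 and 5.89 log2 CPM in unstimulated and at 5.58, 5.72 and 5.73 log2 CPM in stimulated samples. Its log2FC was -0.07 (SE 0.09, FDR 0.494), and the 95% CI of -0.27 to 0.13 does not reach the size of the Irf8 or Irf2 change. Irf5 (chr6:29526625-29541871, plus strand), a factor of the MyD88 pathway, was at 7.69, 7.75 and 7.74 log2 CPM in unstimulated and at 7.53, 7.91 and 7.71 log2 CPM in stimulated samples. The stimulated samples lay on both sides of the unstimulated ones, and the log2FC was -0.01 (SE 0.09, 95% CI -0.21 to 0.19, FDR 0.915). Whether reads were counted by strand was not stated, and Irf5 overlaps Tnpo3 on the opposite strand over 1045 bases, a gene that rose (log2FC 0.54, FDR 6.82e-05). Irf3 overlaps Bcl2l12 over 1065 bases, also on the opposite strand, which did not pass the test (log2FC -0.13, FDR 0.468). The ratio of Irf7 to Irf3 differed by -0.19 on the log2 scale (exact permutation test, two-sided, p = 0.3, adjusted 0.3), and its groups overlapped. Within every same-numbered pair the stimulated ratio was the lower one.

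**Figure D2:**
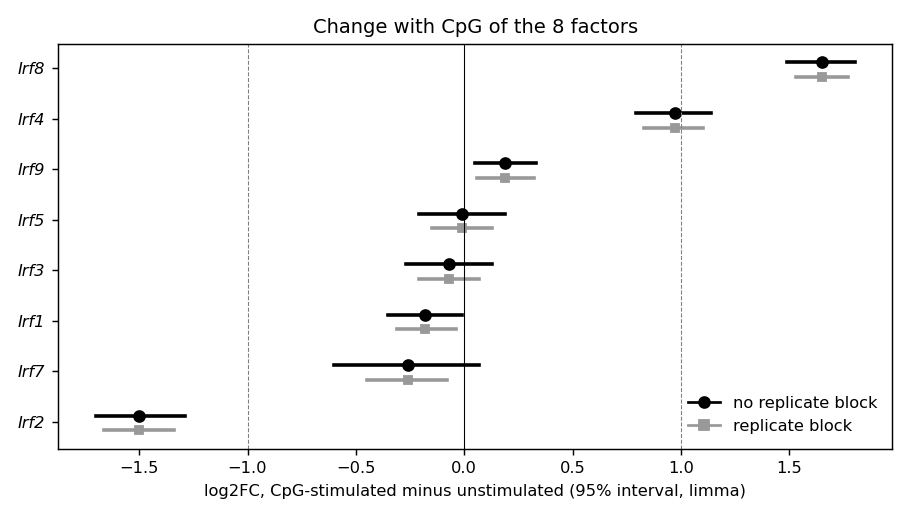
Log2FC of each IRF gene, CpG-stimulated against unstimulated (horizontal axis, log2 scale), with its 95% confidence interval from limma without (black circles) and with (grey squares) the replicate number as a block. Irf8 and Irf2 lie past the limits of 1 and -1, Irf4 lies at 0.97, and the black intervals of Irf3, Irf5 and Irf7 cross 0, of which that of Irf7 lies below 0 with the block.

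Of the 8 members, 3 were called higher (Irf4, Irf8 and Irf9), 1 was called lower (Irf2) and 4 were not called. Over all genes tested 37.6% were called higher and 36.7% lower, so the members' counts were not above this background. The study's signature held only genes that rose, with log2FC over 1 and FDR under 0.05. The limit of -1 for genes that fell was set here. Past these limits 1 member was higher (Irf8) and 1 lower (Irf2). The background was 15.8% of genes with log2FC over 1 and 15.3% with log2FC under -1. The groups did not overlap for 3 members that were higher and 2 that were lower after CpG, against 39.1% and 38.6% of all genes. The median log2FC of the members was -0.04 beside 0.00 over all genes, and the median absolute log2FC was 0.23 beside 0.64. With the replicate number as a block, 3 members were called higher and 3 lower (Irf1, Irf2 and Irf7). Of the 11233 genes tested, that fit called 4390 higher and 4287 lower (38.2%).

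To place the members in order of level, each CPM was divided by the length of the gene's merged exons (log2 RPKM, that is CPM per kilobase). In unstimulated cells Irf4 was highest, at 7.91 ± 0.08 log2 RPKM (SD, n = 3), which put it above 98.6% of the 10558 tested genes with a length. Irf8 followed at 6.37 ± 0.09, Irf5 at 6.19 ± 0.03 and Irf2 at 5.27 ± 0.09 log2 RPKM, each apart from its neighbor in all samples. Irf3 at 3.96 ± 0.15 and Irf1 at 3.88 ± 0.11 log2 RPKM overlapped in range. Irf9 came next at 3.65 ± 0.04 and Irf7 was lowest at 2.76 ± 0.16 log2 RPKM, above 51.7% of tested genes.

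After CpG the upper end of the order was kept and the middle closed up. Irf4 was at 8.88 ± 0.11 and Irf8 at 8.01 ± 0.06 log2 RPKM, above 99.2% and 98.5% of tested genes. Irf5 was at 6.18 ± 0.19 log2 RPKM. Irf3 (3.89 ± 0.08), Irf9 (3.84 ± 0.06), Irf2 (3.77 ± 0.18) and Irf1 (3.71 ± 0.03 log2 RPKM) formed a group in which each overlapped its neighbor. Irf2, which had ranked just after Irf5, now stood above 69.2% of tested genes, where it had stood above 89.1%. Irf7 remained lowest at 2.49 ± 0.31 log2 RPKM.

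The summed level of the 8 members was 8.92 ± 0.04 log2 RPKM in unstimulated and 9.75 ± 0.05 log2 RPKM in stimulated samples. Irf4 and Irf8 together made up 68.5%, 66% and 65.6% of that sum in the unstimulated samples and 86.6%, 82.5% and 84.1% in the stimulated ones. The Irf8 share went from 17% ± 0.675 to 30% ± 0.779 and the Irf2 share from 7.98% ± 0.369 to 1.6% ± 0.245 (SD, n = 3 each). The Irf4 share was 49.7% ± 1.67 and then 54.4% ± 2.14, and the Irf5 share was 15% ± 0.68 and then 8.45% ± 1.4. These shares follow from the values above and were not tested.

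The order of levels between genes depends on the length used, which the log2FC does not. With the longest coding transcript of each gene in place of the merged exons, Irf8 stood above Irf4 after CpG, at 9.32 and 8.92 log2 RPKM, and Irf2 stood above Irf5 before CpG, at 6.84 and 6.56 log2 RPKM. The joint share of Irf4 and Irf8 was then 60.3% in unstimulated and 83.6% in stimulated samples. The single shares moved more: that of Irf4 was 33% and then 36%, that of Irf8 was 27.3% and then 47.6%, and that of Irf2 was 15.3% and then 3.04%. Irf7 was lowest in both groups under either length.

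**Figure D3:**
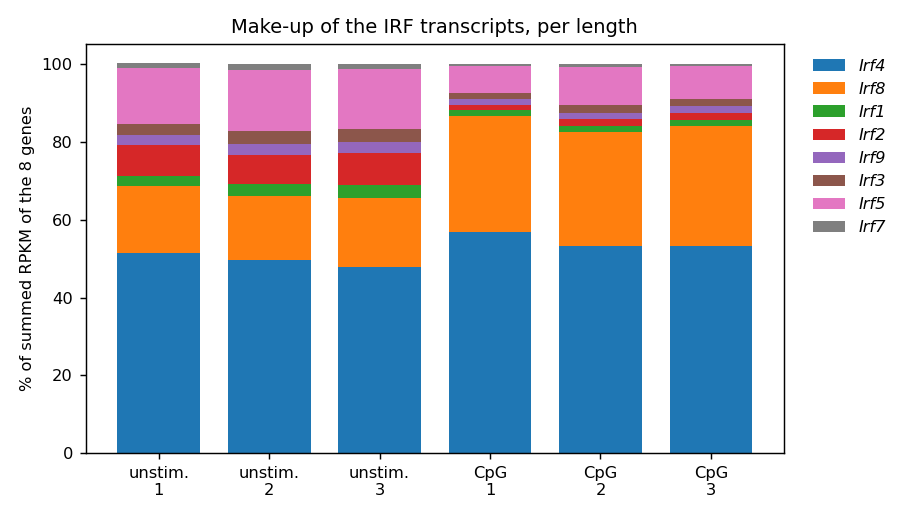
Share of each IRF gene in the summed level of all 8 (vertical axis, percent of summed RPKM over merged exons), as 1 stacked bar for each of the 6 samples. Irf4 and Irf8 together make up 65.6% to 68.5% in the unstimulated and 82.5% to 86.6% in the stimulated samples, and the Irf2 band shrinks in all 3 of the latter.

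**Figure D4:**
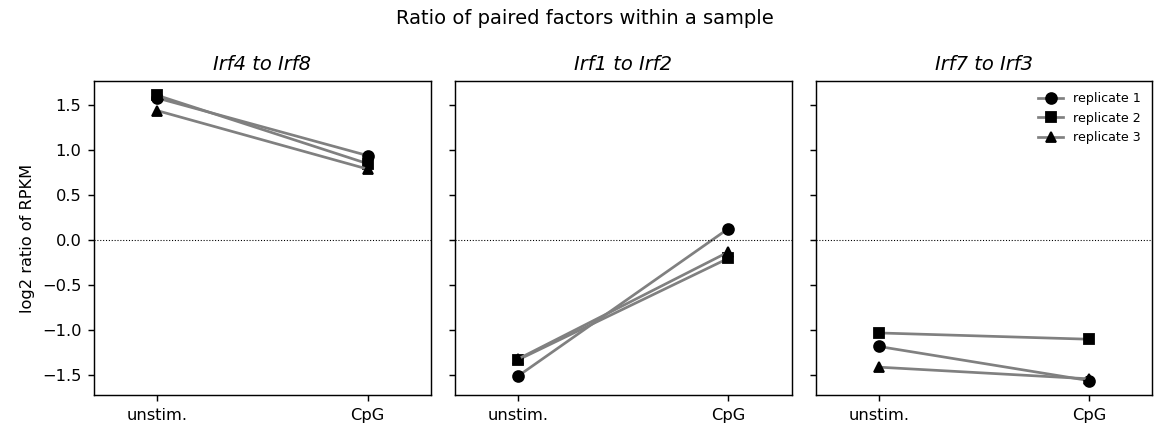
Log2 ratio of levels per length of merged exon within each sample, for Irf4 to Irf8, Irf1 to Irf2 and Irf7 to Irf3, with unstimulated and stimulated samples side by side (points are samples, and lines join samples with the same replicate number). The first ratio is lower and the second higher in all stimulated samples, and the third overlaps between the groups.

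For the 2 members past the limits of 1 and -1, the genes with the closest profile over the 6 samples were found. The measure was the Euclidean distance between log2 values, each centered on its own unstimulated mean. Nearest to Irf8 were Sept11 (distance 0.0735, log2FC 1.66), Ftsjd1 (0.0823, log2FC 1.67) and Nudcd1 (0.106, log2FC 1.64). Nearest to Irf2 were Rfx3 (distance 0.104, log2FC -1.48), Ccdc82 (0.107, log2FC -1.46) and Limd2 (0.109, log2FC -1.50).

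The lists that follow were chosen with earlier results of these data known, and each count is set beside the 37.6% of all genes called higher and the 36.7% called lower. Of 16 listed DNA-binding partners of IRF4, IRF8 and IRF9, 14 were tested: 3 rose and 11 fell, with a median log2FC of -0.73. Batf, the AP-1 factor that recruits IRF4 and IRF8 to AP-1-IRF composite elements, rose from 3.51 ± 0.18 to 8.54 ± 0.03 log2 CPM (SD, n = 3; log2FC 5.03, SE 0.09, FDR 1.66e-09). Jun, which pairs with BATF, rose by a log2FC of 3.32 (FDR 1.86e-08). The ETS partners fell: Sfpi1, the older symbol of Spi1 that encodes PU.1, had a log2FC of -0.85 (FDR 5.93e-06), and Spib had one of -0.39 (FDR 0.00135). Junb and Jund, AP-1 genes named after their values were seen, fell, with log2FC values of -0.23 (FDR 0.0444) and -0.42 (FDR 0.000807). Ets1, an ETS factor high in resting B cells, fell from 10.82 ± 0.13 to 8.26 ± 0.18 log2 CPM (log2FC -2.56, FDR 2.86e-08). Ikzf3, which encodes Aiolos, had a log2FC of -1.63 (FDR 7.5e-08). In the same samples in which Irf4 and Irf8 rose, Batf and Jun transcripts were thus higher. Those of Junb, Jund and the ETS partners named here were lower.

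Genes of the route from endosomal Toll-like receptors and nucleic acid sensors to IRF activation moved both ways. All 20 listed were tested: 11 rose, 7 fell and 2 were not called (all genes: 37.6% higher, 36.7% lower), with a median log2FC of 0.26. Ikbke, which encodes a kinase of IRF3 and IRF7, rose from 1.35 ± 0.22 to 4.64 ± 0.21 log2 CPM (log2FC 3.29, SE 0.16, FDR 6.33e-08). Its relative Tbk1, named after its value was seen, fell by a small amount (log2FC -0.53, FDR 3.87e-05). The receptor gene Tlr9 rose by a log2FC of 1.07 (FDR 1.37e-06), the adaptor gene Myd88 by 0.59 (FDR 6.67e-05), and the RNA sensor gene Ifih1 by 1.96 (FDR 9.85e-06). Tmem173, the adaptor STING of cytosolic DNA sensing, fell (log2FC -1.86, FDR 3.31e-07). Slc15a4, an endolysosomal transporter required for IRF5 activation, also fell (log2FC -1.76, FDR 2.44e-07).

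Among genes that restrain IRFs or interferon signaling, 16 were listed and all were tested: 8 rose, 3 fell and 5 were not called (all genes: 37.6% higher, 36.7% lower), with a median log2FC of 0.21. Socs3 and Socs1, inhibitors of JAK-STAT signaling, rose by log2FC values of 2.73 (FDR 5.57e-07) and 1.72 (FDR 6.89e-06). Bcl6, the germinal center repressor whose gene IRF8 is known to activate and IRF4 to repress, rose by 1.03 (SE 0.12, FDR 2.33e-05). Irf2bp2, which encodes a corepressor that binds IRF2, fell (log2FC -0.67, FDR 1.47e-05), as did the related Irf2bpl (log2FC -1.32, FDR 1.7e-07). Irf2bp1, the other corepressor gene of this family, named after its value was seen, did not pass the test (log2FC -0.11, FDR 0.13).

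Of 17 genes known to be controlled by IRF4 or IRF8 in B cells, all were tested: 6 rose, 7 fell and 4 were not called (all genes: 37.6% higher, 36.7% lower), with a median log2FC of -0.14. With the replicate number as a block 9 fell, with Klf2 (FDR 0.00355) and Ciita (FDR 0.0421), named after their values were seen, called lower in addition. Bcl2l1, which encodes the survival factor BCL-XL, rose from 5.64 ± 0.15 to 9.56 ± 0.12 log2 CPM (log2FC 3.91, SE 0.09, FDR 4.66e-09). Cflar, an inhibitor of death receptor signaling, rose by a log2FC of 2.50 (FDR 1.43e-08). Mef2c, a transcription factor of B cell responses, fell by 2.24 on the log2 scale (FDR 1.5e-08). Prdm1, which encodes BLIMP1 and is the plasma cell target of IRF4, did not pass the test: its values were 4.39, 3.99 and 3.71 log2 CPM in unstimulated and 4.14, 3.88 and 3.70 log2 CPM in stimulated samples (log2FC -0.12, FDR 0.548).

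None of the 21 listed interferon genes passed the filter on low values, and 14 of them were at the level of no reads in all 6 samples. Ifnb1, the target of IRF3 and IRF7 that encodes interferon beta, was at -4.04, -3.29 and -5.04 log2 CPM in unstimulated and at -3.96, -1.63 and -0.81 log2 CPM in stimulated samples, where 3 reads correspond to -2.34 and 10 reads to -0.76. Stimulated replicates 2 and 3 were thus above the level of 3 reads and no sample reached 10. A change of Ifnb1 could not be assessed from so few reads.

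Of 28 listed interferon-stimulated genes, whose promoters were not searched here, 27 were tested: 14 rose, 4 fell and 9 were not called (all genes: 37.6% higher, 36.7% lower), with a median log2FC of 0.80. Isg15, a ubiquitin-like modifier, rose by a log2FC of 2.29 (SE 0.21, FDR 3.65e-06). Oasl1, a protein known to restrain Irf7 translation, rose by 2.08 (SE 0.10, FDR 7.68e-08). Ddx58, the RNA sensor RIG-I, fell (log2FC -0.98, FDR 4.35e-06), as did the immunoproteasome subunit gene Psmb8 (log2FC -0.72, FDR 1.31e-05). Of the 4 genes that fell, none passed the limit of -1, while 11 genes passed the limit of 1 (15.8% of all genes did).

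Of 12 listed and tested interferon receptor, JAK and STAT genes, 3 rose and 9 fell (all genes: 37.6% higher, 36.7% lower), with a median log2FC of -0.75. Ifnar1, a chain of the type I interferon receptor, fell from 8.29 ± 0.07 to 7.31 ± 0.19 log2 CPM (SD, n = 3; log2FC -0.98, FDR 4.94e-06). Ifnlr1, the specific chain of the interferon lambda receptor, went the other way, from 1.54 ± 0.26 to 5.53 ± 0.05 log2 CPM (log2FC 3.99, SE 0.14, FDR 1.64e-08). Stat3 rose by a log2FC of 0.29 (FDR 0.00202). The lists share some genes, such as Stat2, Ifih1, Ddx58 and Bcl6, so their counts do not add up.

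**Figure D5:**
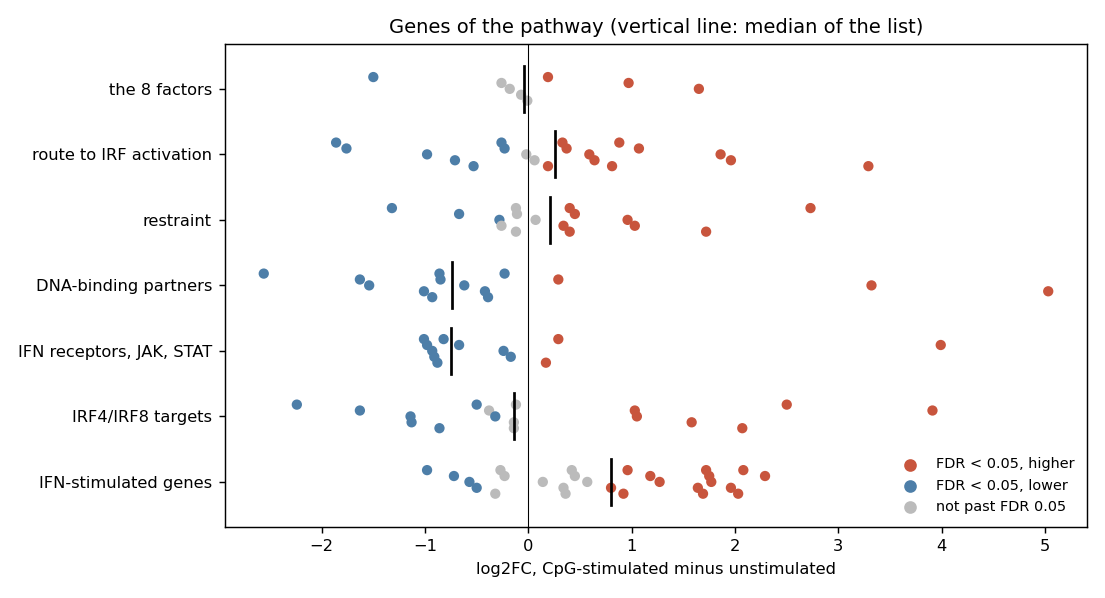
Log2FC of each tested gene, CpG-stimulated against unstimulated (log2 scale), by list: the 8 IRF genes, the route to IRF activation, restraint, DNA-binding partners, interferon (IFN) receptors with JAK and STAT genes, IRF4 or IRF8 targets, and interferon-stimulated genes. Points are genes, colored by call at FDR under 0.05, and vertical marks are list medians: partners (-0.73) and receptors (-0.75) lie below 0 and interferon-stimulated genes (0.80) above it, beside 0.00 over all genes tested.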

How the data were processed

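RNA-seq libraries of the 6 B cell samples were made with a stranded TruSeq mRNA kit. Per the study's methods and the submitters' processing notes, the authors trimmed reads (Trim Galore 0.6.5), aligned them to mm10 (STAR 2.6.1a), counted them per gene (featureCounts, Subread 2.0.1) and applied voom with quantile normalization. The deposited values are log2 CPM, per sample and not pooled. The annotation and the strand setting of the counting are not given in the sources used here. Each table's CPM summed to 992384 to 1012396, and the level of 0 reads, -5.152, puts the common library size after normalization at 17.8M reads. The depth before normalization is unknown. All columns of values were mapped to a sample.

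A count test could not be run on these values, so limma 3.58.1 (R 4.3.3; lmFit, eBayes with trend) was fitted to the 11233 genes above the level of 10 reads (-0.76) in at least 3 samples. No replicate block was used in this fit. P-values were adjusted over all genes tested by Benjamini-Hochberg (FDR), and a gene was called at FDR under 0.05. The method was checked on simulated data in which all samples were drawn independently, so pairing was not covered. Group differences in ratios were tested by an exact two-sided permutation test, without a replicate block except in the alternative.

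Same-numbered samples deviated together from their group means (correlations 0.435, 0.224 and 0.3, against -0.281 to 0.0279 for other pairs), and the labels give them the same sex and 3 mice in all. The alternative fit took the replicate number as a block, on the assumption that same-numbered samples are pairs. The deposited values also carried a shift per gene by replicate number: 867, 821 and 861 genes lay under the level of 0 reads in both samples numbered 1, 2 and 3, with the same value in both for 866, 821 and 861 of them. Such a shift cancels between same-numbered samples. A shift that they share can also change how they correlate, so the correlations cannot by themselves show pairing by mouse.

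Lengths were those of merged GENCODE M21 exons, and gene coordinates are of mm10. The members and gene lists were chosen with earlier results of these data known. All 8 members are named, and of each list up to 4 called genes with the highest or lowest log2FC, plus Spi1, Spib, Batf, Stat2, Tlr9, Myd88, Prdm1, Bcl6 and Irf2bp2. In addition, 1 gene that this rule names is not reported here. Alternatives were no filter, 10 reads in all samples, log2(CPM + 1), no trend, median centring, the block and leaving out each sample. Leaving out both libraries numbered 2 and the longest coding transcript as length were added after seeing the data.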

Additional observations from a re-analysis of the deposited data

How the results depend on the processing

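Of 104 values of single members under the alternatives, 93 kept their direction and their side of the FDR threshold. Irf9 lost its call in 3 fits and Irf1 and Irf7 gained one in 6, as given above or below. Both members whose log2FC changed sign had intervals across 0: Irf3 reached 0.003 without unstimulated replicate 3 (range -0.15 to 0.003 over samples left out), and Irf5 reached 0.08 without stimulated replicate 1 (range -0.11 to 0.08). Irf1 was called with median centring (FDR 0.0427) and without unstimulated replicate 1 (FDR 0.0358), and its FDR spanned 0.0198 to 0.201 over the alternatives. That of Irf7 spanned 0.00555 to 0.462 and that of Irf9 0.01 to 0.0989. The count of members called lower was 3 with the replicate block, 2 with median centring, 2 without both libraries numbered 2 and 1 to 2 with 1 sample left out. Members past the limit of 1 numbered 1 to 2 with 1 sample left out. The replicate block changed no other call of a member. Without the filter, 2 interferon-stimulated genes were called lower in place of 4. The other 305 of 313 counts and ratios stayed within 1.5 times of their value or kept their side of the test, though 3 against 3 samples cannot pass p = 0.05 in a permutation test. Apart from the changes that follow from fewer samples or more genes tested, the cause was not tested. The interferon genes and Siglech were all under the filter, so their changes were not tested.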
